A study of Mus musculus with 53 samples.

Results

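Acute loss of Apc in the mouse small intestine was profiled by RNA-seq in 16 of the 53 libraries of the study. These were the 10 small intestine libraries of Apc fl/fl mice at day 4 after induction and the 6 small intestine libraries of wild-type (WT) mice of the same day, chosen by their labelled genotype, tissue and day. All 16 mice carried VilCreER, a tamoxifen-inducible Cre recombinase driven by the Villin promoter, so that recombination takes place in intestinal epithelial cells and the other cells of the tissue keep Apc. The Apc fl/fl mice were homozygous for the floxed allele, the WT mice carried VilCreER alone, and no drug treatment was recorded for either group. The background was given as Mixed C57BL/6J N6. According to the methods of the study, both sexes were used, at 6 to 12 weeks of age when Cre was induced with 1 or 2 injections of tamoxifen, and which mouse received which schedule is not given in the sources used here. RNA came from whole tissue, so each library pools epithelium with muscle, stroma, vessels, nerves and immune cells, and in such bulk samples fewer cells of a type cannot be told apart from less RNA per cell.

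Apc is a scaffold of the complex that marks beta-catenin for destruction. Without it beta-catenin accumulates, enters the nucleus with TCF/LEF factors and drives the Wnt programme that normally runs only at the crypt base, where stem cells divide and Paneth cells reside. Cells leaving the crypt stop dividing and become absorptive enterocytes, which digest and take up nutrients, or secretory goblet, enteroendocrine and tuft cells.

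Between 516985 and 32824795 reads per Apc fl/fl library (median 17184408) and between 13550610 and 28809523 per WT library (median 19152331) were counted on genes. Library Apc fl/fl 1 was the shallow one, where 3 counts correspond to 5.8 CPM (counts scaled by the library total) against 0.0914 to 0.3 in the other Apc fl/fl libraries, and the next lowest total was 10005066 in Apc fl/fl 8. The correlation of log levels with the rest of the own group, over genes, was 0.906 in Apc fl/fl 1, 0.922 in Apc fl/fl 8 and 0.969 to 0.988 elsewhere. Apc fl/fl 8 had 5.09% of its reads on Gm26917, Lars2, CT010467.1, Rn7sk, Rpph1 and Mir6236, against 0.0349% to 0.136% in the other 15. These genes were picked after the values were seen. The highest of them in Apc fl/fl 8 were the protein-coding gene Lars2 (28200 normalised CPM, next library 794) and CT010467.1 (27600, next 620). In the same library short transcripts were high and long ones low relative to its group, by a median log2 difference of 1.05 among the genes with the shortest exons, the lowest of 4 bins, and -0.57 in the bin of the longest. On a scale where the mean of WT is 0 and that of the other Apc fl/fl libraries is 1, the median gene changed between the groups stood at 0.741 in Apc fl/fl 1 and 1.1 in Apc fl/fl 8. For WT libraries the scale puts the mean of Apc fl/fl at 0 and that of the other WT libraries at 1. There WT 5 stood at 0.726, WT 6 at 0.837 and WT 1 to 4 at 1.01 to 1.19. Gm13394 is a processed pseudogene on chromosome 2 (28933610 to 28934609, minus strand, GRCm38). It had over 10 CPM in Apc fl/fl 5 to 10 and WT 4 to 6 and at most 1.43 in the other libraries. No label explains this division. Of the 36-base words of Gm13394, 96.5% also occur in other genes, so its own share of these reads is uncertain. What the division reflects was not tested. List counts that leaving out Apc fl/fl 8 moved by over 1.5 times are therefore given both ways, and some results by Gm13394 reads at the end.

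**Figure D1:**
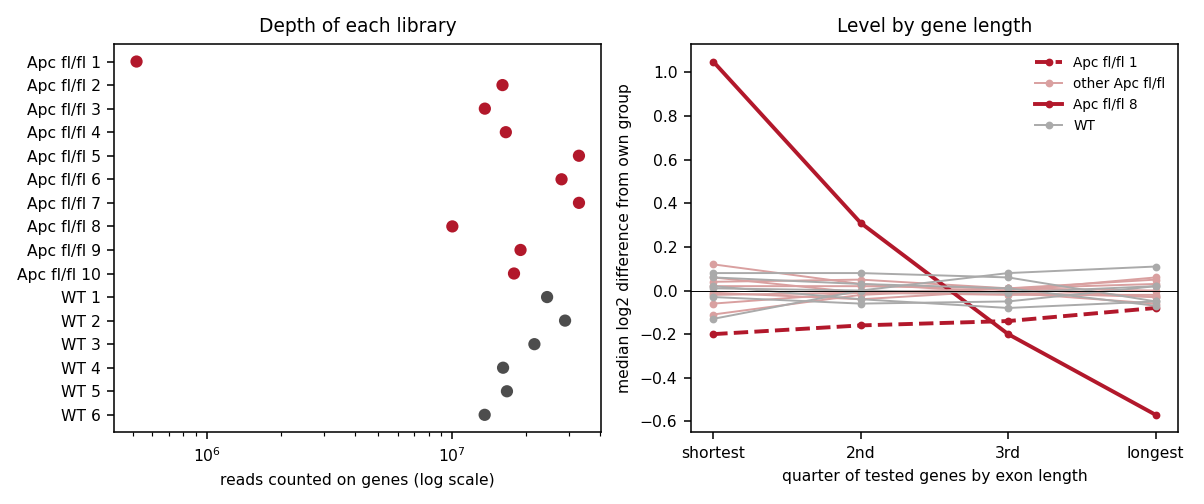
Left, reads counted on genes in each library (log scale). Right, median log2 difference of each library from the rest of its own group in 4 equal bins of the tested genes by exon length; Apc fl/fl 1 has 516985 reads, and Apc fl/fl 8 falls from 1.05 in the shortest bin to -0.57 in the longest while the other 15 stay between -0.20 and 0.12.

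The small intestine markers Vil1, Fabp2, Sis, Lyz1 and Alpi were present in all 16 libraries. The targeted gene itself gave 43.1 to 163 normalised CPM in Apc fl/fl (median 127) and 66.5 to 111 in WT (median 101). The groups overlapped, Apc fl/fl 8 held the lowest value, and the difference did not pass the test (log2 fold change 0.37 ± 0.20 (SE), adjusted p = 0.125), while without Apc fl/fl 8 the gene was higher (0.47, adjusted p = 0.00205). Counts over a whole gene include the exons outside the floxed stretch, so they do not check the deletion. Markers of a neighbouring organ were high in 2 libraries, where the 9 pancreatic acinar markers summed to 1420 CPM in WT 1 and 786 in WT 4 and to 36.8 to 131 in the other 14, and their part in the values below was not tested.

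Throughout, rose and fell mean an adjusted p under 0.05 in the edgeR quasi-likelihood test over all genes, levels are CPM scaled by TMM factors, and changes are log2 fold changes of Apc fl/fl against WT ± SE. Of 17536 genes tested, 4816 rose (27.5%) and 4688 fell (26.7%). Over 2-fold, 1908 were higher and 2024 lower, and over 4-fold 223 and 337. The median log2 fold change of all genes was 0.00. Without Apc fl/fl 8, 5309 of 17498 genes rose, and 5655 fell (32.3%). Counts of list members below are to be read against these shares, and a share near them is no result about a list.

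Promoter sequences are shown for members of the lists that describe Wnt activity, DNA replication and absorption, because each holds the core word of a factor known for that programme. Each stretch is RefSeq sequence of GRCm38.p6, read 5′ to 3′ on the gene's strand and taken from upstream of a RefSeq start site. The word is in capitals as it reads on that strand. The start site used for Tnfrsf19 lies inside the annotated gene (60963875 to 61046490, minus strand), not at its 5′ end.
Tnfrsf19, chr14:61038143-61038229, minus strand, TCF/LEF word: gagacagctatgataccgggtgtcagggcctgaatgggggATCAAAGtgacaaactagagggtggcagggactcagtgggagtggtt
Orc1, chr4:108579387-108579453, plus strand, E2F word: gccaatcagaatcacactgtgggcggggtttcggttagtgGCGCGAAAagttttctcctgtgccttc
Alpi, chr1:87101607-87101665, minus strand, HNF4A word: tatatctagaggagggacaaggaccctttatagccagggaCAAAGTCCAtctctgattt
Slc3a1, chr17:85028268-85028346, plus strand, HNF4A word: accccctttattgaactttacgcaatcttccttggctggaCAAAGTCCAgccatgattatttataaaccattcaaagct
The windows searched ran from 250 bases before to 50 bases after each RefSeq start, on both strands, and overlaps between words were not removed. The E2F words TTTGGCGC or TTTCGCGC occurred in 11 of 42 promoters of DNA replication genes (26.2%, 36 of 44 genes matched) against 0.813% of all 32851 promoters. CTTTGAT, the TCF/LEF word, was in 2 of 24 promoters of Wnt targets (8.33%, 17 of 28 genes matched) against 3.73% of all. The HNF4A word CAAAGTCCA was in 2 of 23 brush border promoters (8.7%), 1 of 23 nutrient transporter promoters (4.35%) and 0 of 17 lipid absorption promoters, against 0.475% of all. The E-box CACGTG was in 5 of 33 promoters of ribosome biogenesis genes (15.2%) against 7.15% of all. These matches describe the letters in the windows and are not evidence of binding.

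Wnt targets rose as a group. Of 28 Wnt target and feedback genes 19 rose and 3 fell, with a median log2 fold change of 1.51. Axin2, a scaffold that feeds back on the pathway, had 170 to 369 normalised CPM in Apc fl/fl (median 296) and 49.9 to 75.2 in WT (median 69.5). No Apc fl/fl library overlapped WT, and the lowest of them was Apc fl/fl 8 (log2 fold change 2.14 ± 0.17 (SE), adjusted p = 1.5e-07). Notum, a secreted enzyme that inactivates Wnt ligands, had 6 to 12.6 normalised CPM in Apc fl/fl (median 8.43) and 0.106 to 0.677 in WT (median 0.418). It was the member with the largest change (log2 fold change 4.41 ± 0.32 (SE), adjusted p = 6.6e-08), and 32% of its 36-base words also occur in other genes. Rnf43, which removes Wnt receptors from the membrane, had 122 to 229 normalised CPM in Apc fl/fl (median 170) and 41.1 to 63.3 in WT (median 44.3). The groups were again apart (log2 fold change 1.80 ± 0.15). Myc (1.93 ± 0.20), Cd44 (2.37 ± 0.23) and Sox9 (2.48 ± 0.20) rose too. The 3 that fell were Efnb1, the ligand of Eph receptors on the villus side (-0.86 ± 0.12), Dkk3 (-0.79 ± 0.22) and Tcf7l2, the TCF factor of intestinal stem cells (-0.39 ± 0.15). Summed over the list, Apc fl/fl libraries held 1630 to 2750 CPM and WT 728 to 1150.

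The components of the pathway did not share one direction. Among 24 destruction complex and receptor genes 5 rose and 6 fell (median 0.07). Ctnnb1, which encodes beta-catenin, had 398 to 1210 normalised CPM in Apc fl/fl (median 841) and 617 to 891 in WT (median 808). Its groups overlapped and the difference did not pass the test (log2 fold change 0.09 ± 0.17 (SE), adjusted p = 0.664). Csnk1e, a casein kinase that phosphorylates Wnt pathway proteins, rose most (1.13 ± 0.15). Fzd5, a Wnt receptor needed by Paneth cells, fell most (-1.45 ± 0.13), with 27.1 to 56 in Apc fl/fl and 120 to 159 in WT and no overlap. The genes that the study itself plotted for Apc loss rose in 102 of 113 tested cases and fell in 2, Npc1l1 and Wdfy1, with a median of 1.31. That list was drawn from these samples and gives no independent support. It shares members with the Wnt target list, such as Axin2, Rnf43, Ascl2, Tnfrsf19, Sox9 and Cd44. The crypt base list below shares Ascl2, Tnfrsf19, Sox9, Rnf43, Msi1, Lrig1, Hopx and others with it. Proliferation and biosynthesis lists hold some too, such as Mcm2 and Paics. The counts of these lists are therefore not separate from it.

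Stem cell genes of the crypt base rose in 19 of 21 cases and fell in none (median 1.46). Lgr5, the receptor that marks crypt base stem cells, had 19.7 to 104 normalised CPM in Apc fl/fl (median 57.6) and 9.01 to 14.7 in WT (median 12.8). Apc fl/fl 5 held the lowest value of its group, still above each WT library (log2 fold change 2.25 ± 0.28 (SE), adjusted p = 8.1e-06). Olfm4, a secreted stem cell marker, had 667 to 2480 normalised CPM in Apc fl/fl (median 1820) and 437 to 851 in WT (median 800). Here Apc fl/fl 5 lay inside the WT range (log2 fold change 1.35 ± 0.26 (SE), adjusted p = 0.000354). Ascl2, the transcription factor that sets stem cell identity, rose (2.41 ± 0.26), as did Smoc2 (1.13 ± 0.18). Tnfrsf19, whose promoter is printed above and which encodes Troy, rose most (3.27 ± 0.30), from 4.01 to 9.35 in WT to 36.2 to 98.1 in Apc fl/fl. Tert (0.47 ± 0.22) and Zbtb16 did not pass.

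Proliferation genes rose almost throughout. Of 44 DNA replication genes 41 rose and 1 fell (median 1.15), and all 30 mitosis genes rose (median 1.02). Mki67, the antigen of cycling cells, had 177 to 281 normalised CPM in Apc fl/fl (median 234) and 110 to 148 in WT (median 125). No library crossed over (log2 fold change 0.83 ± 0.13 (SE), adjusted p = 5.5e-05). Mcm2, part of the replicative helicase, had 108 to 168 normalised CPM in Apc fl/fl (median 154) and 27.6 to 91.2 in WT (median 50.4). Even the lowest Apc fl/fl library, the shallow Apc fl/fl 1, lay above WT (log2 fold change 1.40 ± 0.23 (SE), adjusted p = 8.2e-05). Orc1, which loads that helicase at origins, rose by 1.81 ± 0.27, Top2a, which untangles sister chromatids, by 1.23 ± 0.17, and Mybl2, a driver of mitotic genes, by 1.74 ± 0.28. The exception was E2f2, an E2F factor, which fell (-0.71 ± 0.13) from 35.8 to 66.2 in WT to 18.1 to 32 in Apc fl/fl. E2f8 gave 0.09 ± 0.19 and did not pass. The summed DNA replication level was 2440 to 3490 CPM in Apc fl/fl and 998 to 2100 in WT.

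Cell cycle inhibitors and p53 targets had no common direction, with 7 of 19 tested genes higher and 5 lower. Cdkn2b, the inhibitor p15, had 7.42 to 33.2 normalised CPM in Apc fl/fl (median 13.8) and 60.1 to 94.4 in WT (median 68). It fell in every Apc fl/fl library below the lowest WT value (log2 fold change -2.25 ± 0.25 (SE), adjusted p = 2.9e-06). Cdkn1b, the inhibitor p27, fell by 0.45 on the log2 scale, while Cdkn1a, the inhibitor p21 and a p53 target, gave -0.30 ± 0.17 and did not pass. Eda2r, a p53-induced receptor, rose most (1.59 ± 0.51), with 1.64 to 18.3 in Apc fl/fl and 0.968 to 4.66 in WT.

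**Figure D2:**
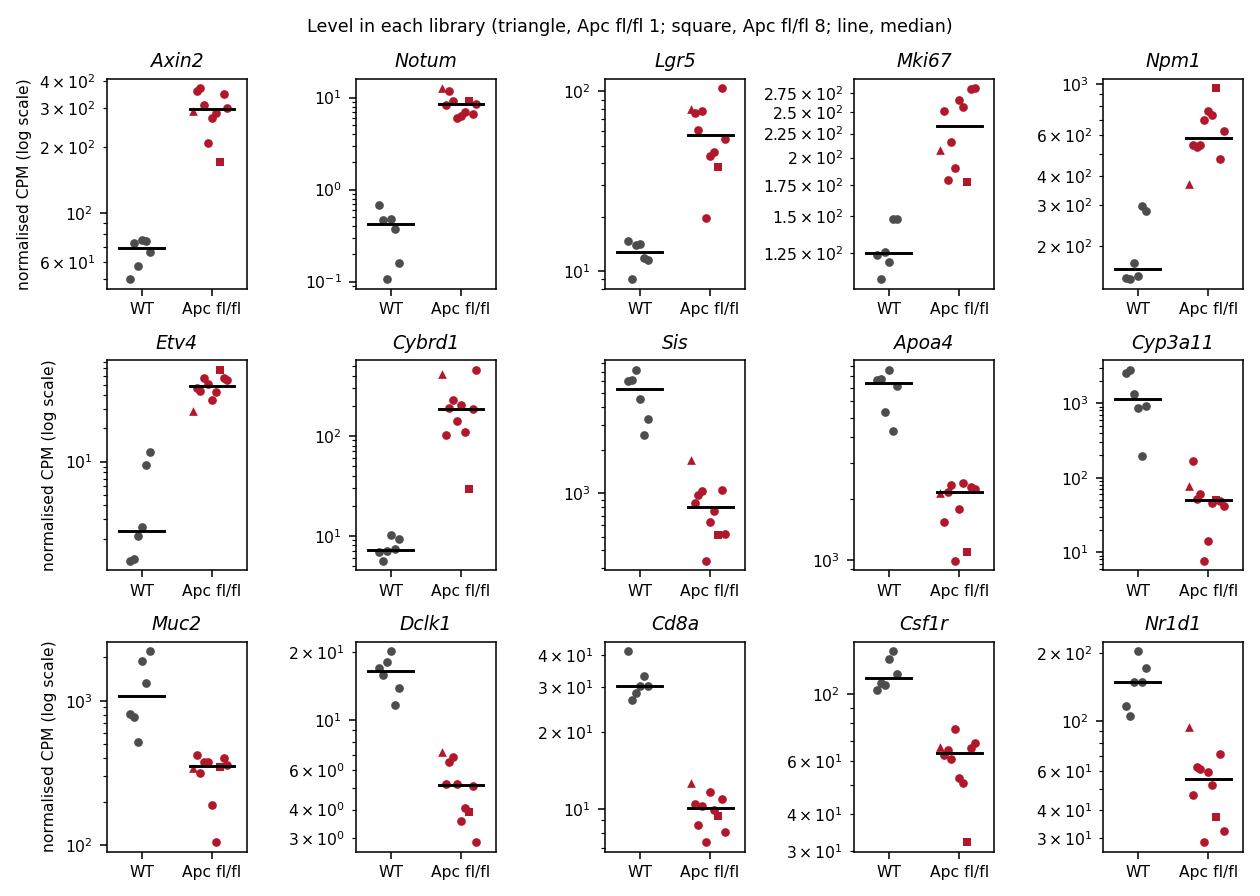
Normalised CPM (log scale) of 15 genes in each of 6 WT and 10 Apc fl/fl libraries; triangles mark Apc fl/fl 1, squares Apc fl/fl 8 and lines the group medians. The groups are apart in each panel; Axin2, for example, spans 170 to 369 in Apc fl/fl and 49.9 to 75.2 in WT.

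Genes of biosynthesis rose with them. All 32 ribosome biogenesis genes rose (median 1.25), and so did all 25 genes of nucleotide and one-carbon synthesis (median 1.21). Ncl, the major nucleolar protein, had 648 to 1500 normalised CPM in Apc fl/fl (median 1050) and 310 to 613 in WT (median 386). Npm1, its partner in ribosome assembly, had 369 to 955 normalised CPM in Apc fl/fl (median 585) and 144 to 297 in WT (median 159). Both were apart between the groups, with log2 fold changes of 1.37 ± 0.22 and 1.66 ± 0.23. Ubtf, the activator of ribosomal RNA genes, rose least (log2 fold change 0.21 ± 0.08 (SE), adjusted p = 0.0367), and its groups overlapped. Paics, an enzyme of purine synthesis, rose by 1.45 ± 0.16. Psat1, of serine synthesis, rose by 2.00 ± 0.34. Cad, which starts pyrimidine synthesis, rose by 1.18 ± 0.31 with overlap (65.4 to 189 in Apc fl/fl and 22 to 96.5 in WT).

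Polyamine genes rose in 6 of 10 cases and fell in 1, or in 2 without Apc fl/fl 8. Odc1, the first enzyme of polyamine synthesis and a Myc target, had 121 to 292 normalised CPM in Apc fl/fl (median 184) and 93.3 to 142 in WT (median 110). It rose (log2 fold change 0.74 ± 0.17 (SE), adjusted p = 0.00118), with Apc fl/fl 1 inside the WT range. Azin1, an Odc1-stabilising protein, fell (-0.77 ± 0.17). In the amino acid response list 9 of 14 rose and 2 fell. Asns, asparagine synthetase, rose by 1.34 ± 0.19. Slc7a5, the light chain of a leucine transporter, rose by 1.79 ± 0.33, whereas Slc3a2, the heavy chain that it pairs with, fell (-1.33 ± 0.11). Slc3a2 ran at 122 to 204 normalised CPM in Apc fl/fl (median 165) and 356 to 518 in WT (median 402), without overlap.

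The absorptive programme fell. Of 20 brush border digestion genes 19 fell and 0 rose (median -1.53), and the exception Tmprss15 did not pass. Sis, sucrase-isomaltase, had 340 to 1690 normalised CPM in Apc fl/fl (median 803) and 2520 to 7200 in WT (median 5300). The groups were apart, and the highest Apc fl/fl value was that of the shallow library Apc fl/fl 1 (log2 fold change -2.57 ± 0.30 (SE), adjusted p = 3.7e-06). Lct, lactase, fell by 2.09 on the log2 scale and Anpep, aminopeptidase N, by 2.01. Ace, a peptidase of the villus surface, fell most, from 1560 to 3400 in WT to 59.3 to 518 in Apc fl/fl (-2.86 ± 0.36). Alpi, the alkaline phosphatase whose promoter is shown above, had 290 to 1750 normalised CPM in Apc fl/fl (median 598) and 502 to 2610 in WT (median 1600). Apc fl/fl 1 lay inside the WT range, and the gene fell (log2 fold change -1.20 ± 0.38 (SE), adjusted p = 0.0128). Ezr, the linker of microvillus membrane to actin, fell least (-0.60 ± 0.18).

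Nutrient transporters fell in 15 of 20 cases, and 1, the lactate and pyruvate carrier Slc16a1, rose (0.34 ± 0.13). Slc5a1, the sodium-glucose transporter SGLT1, had 346 to 2130 normalised CPM in Apc fl/fl (median 841) and 3130 to 5990 in WT (median 4730). No library overlapped, although Apc fl/fl 1 stood well above the others of its group (log2 fold change -2.28 ± 0.27 (SE), adjusted p = 4.7e-06). Slc15a1, the peptide transporter, fell by 1.72 on the log2 scale, and Slc3a1, a subunit of the cystine carrier whose promoter is shown above, by 1.26. Slc23a1, a vitamin C transporter, fell most (-4.27 ± 0.62), with 0.74 to 13.4 in Apc fl/fl and 11.8 to 154 in WT. Lipid absorption genes fell in 18 of 19 cases (median -1.63), with Apoc2 not called. Apoa4, an apolipoprotein of chylomicrons, had 993 to 2400 normalised CPM in Apc fl/fl (median 2140) and 4300 to 8580 in WT (median 7380). It fell without overlap (log2 fold change -1.84 ± 0.21 (SE), adjusted p = 3.5e-06), and 63.6% of its 36-base words also occur in other genes. Apoa1 (-1.71 ± 0.19), Apoc3 (-2.08 ± 0.37) and Mttp, which loads lipid onto apolipoprotein B (-1.65 ± 0.24), fell likewise. Fabp2, the intestinal fatty acid binding protein, fell with overlap (-1.02 ± 0.27), as Apc fl/fl 8 stood at 2940.

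**Figure D3:**
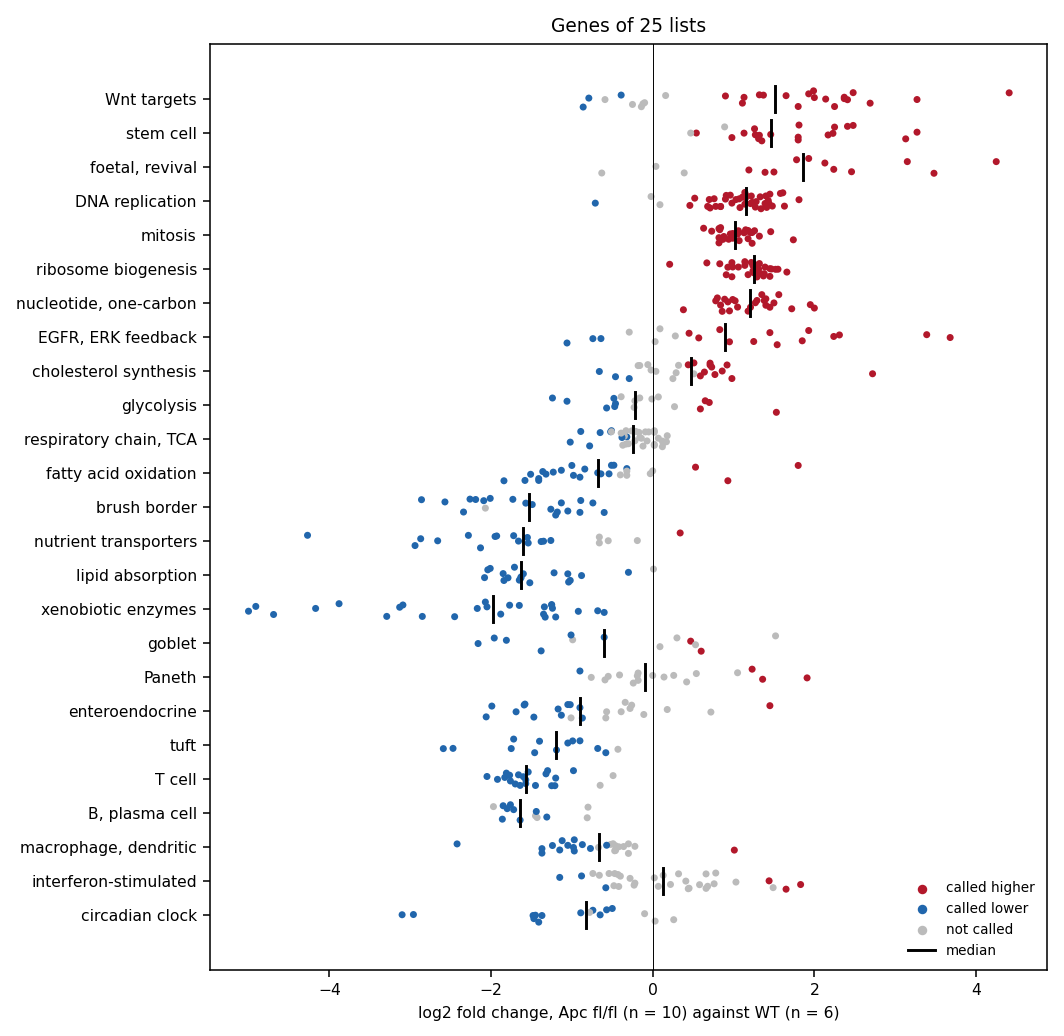
Log2 fold change of every tested member of 25 gene lists, Apc fl/fl (n = 10) against WT (n = 6); red rose, blue fell, grey did not pass, and black bars mark medians. Wnt, stem cell, proliferation and biosynthesis lists lie right of 0 (medians 1.02 to 1.51), and absorption and xenobiotic lists left of 0 (medians -1.53 to -1.97).

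Xenobiotic enzymes gave the lowest median of the metabolic lists, with all 26 genes lower (median -1.97). Ces2a, a carboxylesterase on chromosome 8 (104734003 to 104741634, plus strand, GRCm38), had 4.45 to 38.2 normalised CPM in Apc fl/fl (median 19.7) and 134 to 1140 in WT (median 678). Every Apc fl/fl library lay below every WT library (log2 fold change -5.00 ± 0.42 (SE), adjusted p = 2.5e-07). Cyp3a11, a major drug-metabolising P450, had 7.7 to 169 normalised CPM in Apc fl/fl (median 49.5) and 193 to 2810 in WT (median 1130). Its WT libraries spread widely, yet none fell as low as the highest Apc fl/fl value (log2 fold change -4.69 ± 0.57 (SE), adjusted p = 6.1e-06). Cyp2b10 fell by 4.91 on the log2 scale. Ahr, the receptor that induces P450 genes in answer to aryl compounds, fell least (-0.60 ± 0.12). The summed level of the list was 2390 to 5850 CPM in Apc fl/fl and 6600 to 20000 in WT. Among 5 tested bile acid genes, the basolateral exporter Slc51a fell (-2.05 ± 0.17), the bile acid receptor Nr1h4 fell (-1.26 ± 0.21) and the ileal uptake carrier Slc10a2 rose (1.22 ± 0.39) from a low level, 1.23 to 5.42 in Apc fl/fl and 0.58 to 2.72 in WT.

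Fatty acid oxidation genes fell in 19 of 27 cases and rose in 3 (median -0.68). Acaa1b, a thiolase of peroxisomes, had 6.91 to 20.6 normalised CPM in Apc fl/fl (median 14.7) and 25.4 to 64 in WT (median 49.4). It fell most of the list and without overlap (log2 fold change -1.84 ± 0.23 (SE), adjusted p = 7.1e-06). Ppara, the receptor that controls this pathway, fell by 1.13 on the log2 scale. Acot1, an acyl-CoA thioesterase, went the other way, with 5.42 to 19.4 normalised CPM in Apc fl/fl (median 12.7) and 2.15 to 7.43 in WT (median 2.88). It rose with overlap (log2 fold change 1.80 ± 0.27 (SE), adjusted p = 4.0e-05).

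Glycolysis was divided, with 4 of 17 genes higher and 6 lower. Hk2, the hexokinase typical of proliferating cells, rose (log2 fold change 1.53 ± 0.34 (SE), adjusted p = 0.00116), with 48.2 to 288 in Apc fl/fl and 26.6 to 50.6 in WT and the highest value in Apc fl/fl 5. Slc2a1, the glucose transporter GLUT1, rose by 0.70 ± 0.22, and Pfkl and Aldoa also rose. Pfkfb3, which makes the activator of phosphofructokinase, fell (-1.24 ± 0.33), as did Pkm (-0.48 ± 0.14). Ldha, lactate dehydrogenase A, gave -0.39 ± 0.17 and did not pass with all 16 libraries, but fell without Apc fl/fl 8 (-0.52, adjusted p = 0.0011).

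For genes of the respiratory chain and TCA cycle the count depended on Apc fl/fl 8. With all libraries 9 of 38 fell and 0 rose (median -0.24), and without Apc fl/fl 8 32 fell (median -0.46). The summed level of these 38 nuclear genes was 12600 to 16800 CPM in 9 Apc fl/fl libraries, 30600 in Apc fl/fl 8 and 17700 to 23800 in WT. Cs, citrate synthase, had 661 to 1090 normalised CPM in Apc fl/fl (median 781) and 996 to 1370 in WT (median 1140). Apc fl/fl 1 alone lay in the WT range (log2 fold change -0.52 ± 0.12 (SE), adjusted p = 0.00158). Sdha (-0.51 ± 0.13) and Ogdh (-1.02 ± 0.20) fell also. Of 13 protein genes encoded in mitochondrial DNA 5 fell and 0 rose (median -0.58), and 8 fell without Apc fl/fl 8 (median -0.47), among them mt-Cytb (-0.84 ± 0.15), at 4160 to 6600 in Apc fl/fl and 7630 to 11500 in WT. The effect of the excess of short transcripts in Apc fl/fl 8 on these counts was not tested beyond leaving the library out.

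Cholesterol synthesis genes rose in 12 of 24 cases and fell in 3 (median 0.47). Sqle, a rate-limiting monooxygenase of the pathway, had 68.6 to 119 normalised CPM in Apc fl/fl (median 96.4) and 40.6 to 107 in WT (median 67.3). It rose modestly, with overlap (log2 fold change 0.51 ± 0.18 (SE), adjusted p = 0.022). Sc5d, a late enzyme (-0.66 ± 0.10), Insig1 and Stard4 fell.

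Iron handling genes held one of the largest changes of the comparison. Cybrd1, the ferric reductase of the duodenal brush border, had 29.1 to 459 normalised CPM in Apc fl/fl (median 188) and 5.64 to 10.3 in WT (median 7.25). The groups were far apart, and the lowest Apc fl/fl value was that of Apc fl/fl 8 (log2 fold change 4.72 ± 0.50 (SE), adjusted p = 1.8e-06). Pdx1, a factor of duodenum and pancreas, differed among the WT libraries, as given near the end. The part of the position sampled along the small intestine was not tested for Cybrd1 or for other genes that vary with position. Slc40a1, the iron exporter ferroportin, rose (log2 fold change 2.32 ± 0.48 (SE), adjusted p = 0.000626) with a slight overlap, 76.4 to 453 in Apc fl/fl and 15.2 to 83.1 in WT. Tfrc, the transferrin receptor, rose by 0.45 ± 0.14. Fth1, the ferritin heavy chain, had 825 to 5820 normalised CPM in Apc fl/fl (median 1370) and 1680 to 7560 in WT (median 3440). It did not pass with all libraries (log2 fold change -1.04 ± 0.44 (SE), adjusted p = 0.0554) and fell without Apc fl/fl 8 (-1.41). In all 4 of 11 rose and 2 fell (median 0.08), and without Apc fl/fl 8 4 rose and 5 fell (median -0.09).

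Secretory lineages did not move alike. Tuft cell genes fell in 12 of 13 tested cases (median -1.19). Dclk1, a kinase that marks tuft cells, had 2.87 to 7.23 normalised CPM in Apc fl/fl (median 5.13) and 11.6 to 20.2 in WT (median 16.4). It fell without overlap (log2 fold change -1.72 ± 0.19 (SE), adjusted p = 2.0e-06). Trpm5, the cation channel of chemosensory cells, fell by 1.75 on the log2 scale. Rgs13 fell most (-2.59 ± 0.35). Enteroendocrine genes fell in 12 of 23 cases and rose in 1. Chga, a protein of hormone granules, had 25.1 to 50.8 normalised CPM in Apc fl/fl (median 37.4) and 77.1 to 162 in WT (median 101). Each Apc fl/fl library lay below WT (log2 fold change -1.47 ± 0.16 (SE), adjusted p = 2.3e-06). Gcg, which encodes the GLP-1 precursor, fell most (-2.06 ± 0.28). Neurog3, the factor that starts endocrine fate in crypt progenitors, was the one that rose (log2 fold change 1.45 ± 0.21 (SE), adjusted p = 2.5e-05), with 4 to 10.8 in Apc fl/fl and 1.89 to 3.68 in WT and no overlap.

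Goblet cell genes fell in 6 of 13 cases and rose in 2. Muc2, the main secreted mucin, had 105 to 419 normalised CPM in Apc fl/fl (median 354) and 520 to 2210 in WT (median 1080). It fell without overlap (log2 fold change -1.96 ± 0.31 (SE), adjusted p = 5.2e-05). Clca1, a protein of secreted mucus, fell by 2.16 on the log2 scale and Fcgbp, which binds mucus, by 1.81. Tff3, a goblet trefoil peptide, had 101 to 1900 normalised CPM in Apc fl/fl (median 357) and 753 to 1160 in WT (median 921). The top value was that of Apc fl/fl 8, far above the others of its group, and the fall passed without that library (-1.58, adjusted p = 3.3e-05) and not with it (-0.99 ± 0.44, adjusted p = 0.0649). Spdef, the goblet and Paneth maturation factor, rose (0.47 ± 0.16), and Atoh1, the factor required for all secretory cells, gave 0.09 ± 0.17 and did not pass.

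Paneth cell genes were mixed, with 3 of 18 higher, 1 lower and a median of -0.09, and 2 lower without Apc fl/fl 8. Lyz1, lysozyme, had 925 to 3500 normalised CPM in Apc fl/fl (median 1780) and 910 to 3620 in WT (median 2530). The groups overlapped through most of their ranges (log2 fold change -0.24 ± 0.32 (SE), adjusted p = 0.558). Mmp7, which activates defensins, rose (1.23 ± 0.31), as did Wnt3, the ligand that Paneth cells give to stem cells (1.91 ± 0.34), and the surface protein Cd24a (1.36 ± 0.17). The defensin Defa24 gave -0.59 ± 0.35 and did not pass, and Defa30 fell (-0.90 ± 0.34). Defensin genes resemble each other, and 48.2% of the 36-base words of Defa24 occur in other genes, so single defensins are uncertain.

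Regulators of cell fate changed in both directions. Hes1, the Notch effector that blocks secretory fate, had 34.3 to 90.7 normalised CPM in Apc fl/fl (median 50.5) and 26.6 to 36.4 in WT (median 32.9). It rose, with the shallow library Apc fl/fl 1 inside the WT range (log2 fold change 0.77 ± 0.17 (SE), adjusted p = 0.000874). Dll1, a Notch ligand of secretory progenitors, fell without overlap (-1.01 ± 0.13), and 5 of 12 Notch genes rose and 2 fell. Among 20 intestinal transcription factors 10 fell, and the 3 that rose were Foxa1 (1.74 ± 0.19), Foxa2 (1.27 ± 0.17) and Foxa3 (1.58 ± 0.20), forkhead factors of gut endoderm. Foxa1 ran at 25.3 to 52 normalised CPM in Apc fl/fl (median 44.7) and 9.28 to 18.7 in WT (median 10.9). Hnf4g, a nuclear receptor that maintains enterocytes, fell (-1.71 ± 0.31), while its relative Hnf4a gave -0.11 ± 0.12 and did not pass. Gata4, a factor of the proximal small intestine, fell (-0.78 ± 0.14), and of 6 proximal markers 3 fell and 1 rose.

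Pan-epithelial genes gave no common shift, with 3 of 14 higher and 3 lower, and 4 higher and 5 lower without Apc fl/fl 8. Epcam, the general epithelial adhesion protein, had 1350 to 1670 normalised CPM in Apc fl/fl (median 1570) and 1470 to 2040 in WT (median 1690). The groups overlapped and the difference did not pass (log2 fold change -0.17 ± 0.11 (SE), adjusted p = 0.218). Krt18, a keratin of simple epithelia, rose (1.84 ± 0.22), while its partner Krt8 gave -0.04 ± 0.11 and did not pass. Cldn2, the pore-forming claudin of the crypt, rose (1.83 ± 0.22), at 335 to 601 in Apc fl/fl and 75.1 to 203 in WT. Cldn15, another pore-forming claudin, fell (-1.80 ± 0.19), and so did Krt20, a keratin of differentiated cells (-1.05 ± 0.18). Pgc, pepsinogen C and a stomach marker, rose from 0.8 to 1.68 in WT to 6.06 to 20.2 in Apc fl/fl (log2 fold change 3.07 ± 0.29 (SE), adjusted p = 6.4e-07). The other 6 stomach and Brunner gland markers did not pass the filter on low counts.

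The immune lists differed in how many members fell. T cell and cytotoxic genes fell in 20 of 22 cases (median -1.57), and Cd2 and Foxp3 did not pass. Cd8a, a co-receptor that most intraepithelial lymphocytes carry, ran at 7.4 to 12.6 in Apc fl/fl and 26.7 to 41.4 in WT (normalised CPM). All Apc fl/fl values lay below all WT values (log2 fold change -1.70 ± 0.12 (SE), adjusted p = 7.4e-08). Cd3e, a chain of the T cell receptor complex, fell by 1.76 on the log2 scale and Gzma, granzyme A, by 1.64. Itgae, the integrin that holds lymphocytes at E-cadherin, fell by 1.25, and Cd28, a co-stimulator, fell most (-2.05 ± 0.24). Summed over the list, Apc fl/fl libraries had 98.1 to 275 CPM, with the highest in Apc fl/fl 8, and WT 388 to 596.

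B cell and plasma cell genes fell in 8 of 13 tested cases, and in 13 without Apc fl/fl 8. Igha, the heavy chain of IgA, had 865 to 7330 normalised CPM in Apc fl/fl (median 3160) and 6170 to 19300 in WT (median 10500). It fell with slight overlap (log2 fold change -1.86 ± 0.44 (SE), adjusted p = 0.00206). Jchain, which joins IgA molecules, fell by 1.64 on the log2 scale. Cd79a, part of the B cell receptor, had 0.544 to 39.7 normalised CPM in Apc fl/fl (median 2.4) and 6.06 to 52.1 in WT (median 11.4). Apc fl/fl 8 and WT 4 held the top values of their groups, at 39.7 and 52.1. The difference did not pass with all libraries (-1.43 ± 0.78) and passed only without Apc fl/fl 8 among the single libraries left out.

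Macrophage and dendritic cell genes fell in 13 of 25 cases and rose in 1 (median -0.67). Csf1r, the receptor for macrophage growth factor, had 32.2 to 76.3 normalised CPM in Apc fl/fl (median 63.9) and 103 to 139 in WT (median 113). The groups were apart (log2 fold change -0.97 ± 0.14 (SE), adjusted p = 2.9e-05). Adgre1, the F4/80 antigen, fell by 0.97 on the log2 scale as well. Cd209a, a lectin of dendritic cells, fell most (-2.42 ± 0.29). Cd14, the co-receptor for bacterial lipopolysaccharide, was the one that rose (1.01 ± 0.24), with the highest values in Apc fl/fl 5 (34.1) and Apc fl/fl 8 (33). In the neutrophil list 2 of 10 tested genes fell, Mmp9 (-0.97 ± 0.22) and Csf3r, and 0 rose. MHC class II genes fell in 4 of 9 cases, Cd74 (-0.97 ± 0.23), H2-Ab1 (-0.86 ± 0.19), H2-Eb1 and Ciita, and in 9 without Apc fl/fl 8.

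Interferon-stimulated genes were spread over both signs, with 3 of 33 higher, 3 lower and a median of 0.13, and 6 lower without Apc fl/fl 8. Rsad2, an antiviral enzyme, had 7.68 to 129 normalised CPM in Apc fl/fl (median 27.4) and 8.68 to 19.3 in WT (median 15.6). Apc fl/fl 5, 6 and 7 held the 3 highest values, Apc fl/fl 1, 9 and 10 lay above WT as well, and Apc fl/fl 2, 3, 4 and 8 did not (log2 fold change 1.83 ± 0.59 (SE), adjusted p = 0.0141). Ifit2 (1.65 ± 0.49) and Ifi44 (1.44 ± 0.57) also rose. Isg15, a ubiquitin-like protein, had 20.5 to 180 normalised CPM in Apc fl/fl (median 47.5) and 17.5 to 66.2 in WT (median 58.7). It did not pass (0.58 ± 0.46). Gbp2, Irf1 and Ddx58 fell. In the epithelial defence list 3 of 13 tested genes rose and 4 fell, and 1 rose without Apc fl/fl 8. With the libraries at or under 10 CPM of Gm13394 alone the median of this list was -1.50, and with those over it 0.23, and the interaction of genotype with Gm13394 reads passed for 0 of its members. Reg3a, a secreted antimicrobial lectin, had 5.89 to 34 normalised CPM in Apc fl/fl (median 10.9) and 107 to 247 in WT (median 171). It fell in every Apc fl/fl library (log2 fold change -3.79 ± 0.37 (SE), adjusted p = 9.3e-07).

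Few smooth muscle and matrix genes changed, while most endothelial and enteric nerve genes fell. Among 12 smooth muscle genes 2 fell and 0 rose (median -0.16), or 1 fell and 1 rose without Apc fl/fl 8, and among 15 fibroblast and matrix genes 2 fell (median -0.30). Mylk, myosin light chain kinase, fell (-0.85 ± 0.22), and Fbln1, a matrix protein, fell (-0.97 ± 0.17). Endothelial genes fell in 7 of 10 cases. Kdr, the VEGF receptor 2, had 13.7 to 34.3 normalised CPM in Apc fl/fl (median 28.5) and 44.9 to 52.6 in WT (median 46.9). The groups were apart, with Apc fl/fl 8 lowest (log2 fold change -0.79 ± 0.14 (SE), adjusted p = 0.000186). Pecam1 ran at 15.7 to 36.3 in Apc fl/fl and 39.3 to 53.1 in WT and fell (-0.79 ± 0.13). Genes of enteric neurons and glia fell in 7 of 11 cases, among them Sox10, the factor of glia (-1.59 ± 0.36), which had 0 counts in Apc fl/fl 1 and Apc fl/fl 8. The 8 adipose markers summed to 53.9 to 113 CPM in Apc fl/fl and 87.1 to 224 in WT, and the part of attached fat in the stromal values was not tested.

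Foetal and revival genes, which are high in the foetal gut and after injury, rose in 11 of 14 cases and fell in none (median 1.86). Without Apc fl/fl 5 they rose in 8 cases (median 1.41). With the libraries at or under 10 CPM of Gm13394 alone, 9 rose and 3 fell (median 1.27), and Ly6a (-0.49) and Anxa1 (-0.07) changed sign. With those over 10 CPM, 9 rose and 0 fell (median 1.99). The interaction of genotype with Gm13394 reads passed for 0 members, and for 1 without Apc fl/fl 8. Clu, clusterin, the marker of revival stem cells, had 16.3 to 1540 normalised CPM in Apc fl/fl (median 71.6) and 16.5 to 132 in WT (median 20.5). One library, Apc fl/fl 5, held that top value, the next was 97.4, and WT 4 was at 132 (log2 fold change 2.46 ± 0.94 (SE), adjusted p = 0.0338). Without Apc fl/fl 5 its log2 fold change was 0.78 and did not pass. Ly6a, the antigen Sca-1, rose (1.39 ± 0.55), with 24 to 260 in Apc fl/fl and 26 to 45.7 in WT, and gave 1.11 without Apc fl/fl 5, which did not pass. Anxa1 rose at the edge of the threshold (log2 fold change 1.19 ± 0.50 (SE), adjusted p = 0.0498), and 10 of the 16 fits that leave out 1 library did not call it. YAP target genes rose in 5 of 11 tested cases and fell in 2. Ccn2, a matricellular target of YAP, rose (1.92 ± 0.45) with 9.03 to 118 in Apc fl/fl and 6.08 to 9.2 in WT, and Lats2, the kinase that restrains YAP, fell (-0.60 ± 0.13).

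Ligands and feedback genes of EGFR and ERK signalling rose in 13 of 20 cases and fell in 3 (median 0.89). Etv4, an ERK-induced ETS factor, had 28.9 to 68 normalised CPM in Apc fl/fl (median 48.4) and 1.26 to 12.2 in WT (median 2.32). WT reached its highest value well below the lowest Apc fl/fl library (log2 fold change 3.39 ± 0.47 (SE), adjusted p = 1.7e-05). Areg, the ligand amphiregulin, had 32.5 to 209 normalised CPM in Apc fl/fl (median 71.2) and 8.81 to 28.4 in WT (median 20.2). It rose without overlap (log2 fold change 2.24 ± 0.40 (SE), adjusted p = 0.000196). Fosl1 rose most (3.68 ± 0.49) from a low level, and 54.0% of its 36-base words occur in other genes. Erbb3, the co-receptor, fell (-1.06 ± 0.19), as did Erbb2 and Dusp5. BMP and TGF-beta genes were divided, with 3 of 14 higher and 3 lower, and 5 higher and 4 lower without Apc fl/fl 8. Tgfbr2, the TGF-beta type II receptor, rose (1.12 ± 0.20), and Nog, a BMP antagonist, fell (-1.58 ± 0.27) at levels of 0 to 0.795 in Apc fl/fl and 1.02 to 1.6 in WT.

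Circadian clock genes fell in 12 of 16 cases and rose in none (median -0.83). Nr1d1, the repressor REV-ERB alpha, had 28.9 to 93.9 normalised CPM in Apc fl/fl (median 55.4) and 105 to 204 in WT (median 149). The ranges did not meet (log2 fold change -1.48 ± 0.21 (SE), adjusted p = 2.5e-05). Dbp, an output factor of the clock, had 1.33 to 16.3 normalised CPM in Apc fl/fl (median 6.41) and 7.66 to 107 in WT (median 47.9). It fell with overlap (log2 fold change -3.10 ± 0.51 (SE), adjusted p = 8.1e-05). Per2 fell by 1.45 on the log2 scale. The hour of sampling is not given in the sources used here, so its part in these values was not tested. Among 11 immediate early genes 4 rose and 2 fell. Egr1, a growth-factor-induced zinc finger protein, rose (1.25 ± 0.40), and Zfp36, which degrades cytokine RNAs, fell without overlap (-0.97 ± 0.14).

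Ranked by size of change among genes with groups apart and an average log2 CPM of 3 or more, the top 15 each way included genes not described above, of which Msx1 and Krt23 belong to the list that the study plotted for Apc loss. Gulo, the last enzyme of vitamin C synthesis, had 8.77 to 54.6 normalised CPM in Apc fl/fl (median 11.8) and 0.106 to 0.41 in WT (median 0.166). It gave the largest rise (log2 fold change 6.36 ± 0.54 (SE), adjusted p = 2.5e-07), with Apc fl/fl 10 far above the others. Msx1, a homeobox factor on chromosome 5 (37820485 to 37824583, minus strand, GRCm38), had 17.5 to 46.6 normalised CPM in Apc fl/fl (median 27.5) and 0.371 to 0.719 in WT (median 0.568). Its groups were wide apart for their spread (log2 fold change 5.73 ± 0.29 (SE), adjusted p = 1.4e-09). Krt23, an epithelial keratin, had 65 to 111 normalised CPM in Apc fl/fl (median 76.4) and 6.97 to 10.5 in WT (median 7.93). The spread within either group was small (log2 fold change 3.32 ± 0.14 (SE), adjusted p = 1.3e-10). Atg9b (5.02 ± 0.78) and Faim2, an inhibitor of Fas-driven death (3.42 ± 0.29), rose also. Among the falls, Cyp2c66 had the largest (-5.30 ± 0.66). Ugt1a1, the bilirubin glucuronidating enzyme, had 0.959 to 3.65 normalised CPM in Apc fl/fl (median 2.55) and 38.7 to 93.3 in WT (median 57.2). It fell without overlap (log2 fold change -4.65 ± 0.28 (SE), adjusted p = 1.3e-08), but 81.0% of its 36-base words occur in other genes, so its own share of the reads is uncertain. Slc5a4a, a glucose transporter relative (-4.80 ± 0.49), Dnase1 (-3.89 ± 0.33) and the carbonic anhydrase Car4 (-3.80 ± 0.32) fell too.

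The libraries were also compared in 2 sets by Gm13394 reads. With the 6 Apc fl/fl and 3 WT libraries over 10 CPM alone, 2450 of 18055 genes rose (13.6%) and 3040 fell (16.8%). With the 4 Apc fl/fl and 3 WT libraries at or under 10 CPM, 4942 of 17208 rose (28.7%) and 5259 fell (30.6%). Both sets tested 17022 genes in common. Of these, 4250 were called in both, 4206 of them with the same sign, and the 4250 were 80.7% of the calls of the first set and 42.1% of those of the second among the genes in common. The sets also differed in reads of the sex-linked genes Ddx3y and Xist. WT 4 to 6 all had Ddx3y (32 to 53.3 CPM) and at most 0.745 CPM of Xist. Of the other WT libraries, WT 2 had Ddx3y (51.8 CPM), and WT 1 and WT 3 had Xist (477 and 406 CPM). Ddx3y was over 10 CPM in 4 of 10 Apc fl/fl and 4 of 6 WT libraries. The part of sex in the differences between the sets was not tested. The difference between the sets was then tested with an interaction term. It passed for 51 of 17536 genes (0.291%), and for 1340 of 17498 (7.66%) without Apc fl/fl 8, but for 0 without WT 1 and 0 without WT 2.

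Pdx1, a factor of duodenum and pancreas, was among these 51. It ran at 20.8, 31.7 and 19 normalised CPM in WT 1 to 3 and at 0.888 to 0.959 in WT 4 to 6, and at 1.53 to 18.1 in Apc fl/fl. Its log2 fold change was -2.59 in the set at or under 10 CPM and 1.99 in the set over it (interaction 4.37, adjusted p = 0.0273). Slc23a1 fell by a log2 of 4.17 more in the set over 10 CPM (adjusted p = 0.0366), and the rise of Tnfrsf19 was smaller there by 1.79 (adjusted p = 0.0283). Interferon-stimulated genes fell in 24 of 33 cases in the set at or under 10 CPM (median -0.78) and in 1 in the other (median 0.46), but the interaction passed for 0 of them with all libraries and for 6 without Apc fl/fl 8. Paneth cell genes rose in 9 of 18 cases and fell in none in the set at or under 10 CPM (median 1.10), and rose in 3 and fell in 6 in the other (median -0.85), and the interaction passed for 0 with all libraries and for 13 without Apc fl/fl 8. DNA replication genes kept their direction, with medians of 1.56 in the set at or under 10 CPM and 0.82 in the other. The interaction passed for 0 of these 44 genes with all libraries. Without Apc fl/fl 8 it passed for 16, each with a smaller effect in the set over 10 CPM. Brush border genes also kept their direction, with medians of -1.29 and -1.34. For them the interaction passed for 0 with all libraries, and for 1 higher and 1 lower without Apc fl/fl 8.

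**Figure D4:**
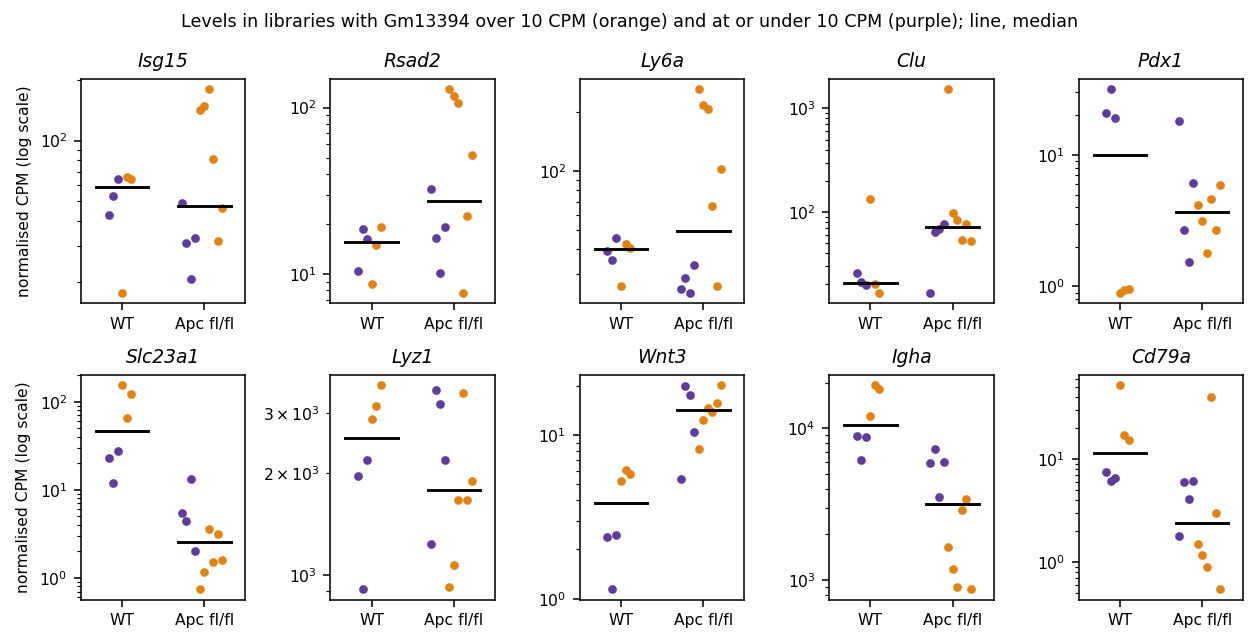
Normalised CPM (log scale) of 10 genes in WT and Apc fl/fl libraries, coloured by Gm13394 reads; lines are group medians. WT libraries at or under 10 CPM of Gm13394 have 19 to 31.7 CPM of Pdx1 and those over it 0.888 to 0.959, and the 3 highest Isg15 values, 142 to 180, are Apc fl/fl libraries over 10 CPM.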

How the data were processed

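RNA from whole tissue of the small intestine of 16 mice at day 4 was sequenced by the authors as paired reads on a NextSeq 500. Reads were checked with FastQC 0.11.8, trimmed with Trim Galore 0.6.4, aligned to GRCm38 with HISAT2 2.1.0 and counted on genes with featureCounts 1.6.4. How strand and multi-mapping reads were handled is not given in the sources used here. The deposited values are raw counts, 1 table of 55421 genes for all 53 libraries, and 55240 genes have a symbol in the annotation used. No column belonged to another sample.

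Groups were taken from the labels, which number the libraries within each group and name no batch. The study describes its in vivo replicates as independent animals. Apc fl/fl (n = 10) and WT (n = 6) entered 1 model without the other groups of the study, tested by quasi-likelihood in edgeR 4.0.16 (R 4.3.3), after filterByExpr and TMM scaling, two-sided, with Benjamini-Hochberg adjustment over all genes tested and a threshold of 0.05. The study named DESeq2 for differential expression and, for its signatures, edgeR with terms for batch and gene activation status. Which library belonged to which batch is not given in the sources used here. DESeq2 1.42.0 was an alternative, as were limma 3.58.1 with voom, RLE scaling, no filter on low counts and the replicate number as a block. Further alternatives were terms for Gm13394 and Ddx3y reads, the libraries on either side of 10 CPM of Gm13394 alone, and each library left out in turn. The genotype by Gm13394 interaction, the check of exon length and the count of shared 36-base words were chosen after seeing the data. So were the genes, Lars2 among them, whose share of reads was given for each library. The members of the lists were chosen with earlier results of these data known. Genes were named if they were among the first 4 of a list, its highest or lowest member, or among the 15 genes each way with the largest change, where the average log2 CPM was 3 or more and the groups did not overlap. Myc, Cd44, Sox9, Cldn2, Krt8, Atoh1, Cdkn1a, Slc2a1, Fcgbp and the members spelled out from small counts were chosen after their values were seen. Gene names and exon lengths came from the files and the reference annotation, and promoters from RefSeq.

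On simulated data of 17304 genes with 200 changed, the test called 94.8% of genes changed by a log2 of 2 and 64.6% of those changed by 1. Of its calls, 6.1% were unchanged genes. The simulation changed far fewer genes than were called in the real data. It held no excess of short transcripts in 1 library and no division by Gm13394 reads, so these shares need not hold for the real data. A floor of 3 counts is 5.8 CPM in Apc fl/fl 1 and 0.0914 to 0.3 in the other libraries. Floors cover counting error only, and p-values measure the spread between these mice. Some genes that the naming rule takes in are not reported here.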

Additional observations from a re-analysis of the deposited data

Results flagged for a closer look

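Among 408 groups of values looked at (summed list levels and the genes named, in either group), 57 held 1 library far from the others of its group by Dixon's criterion, which chance gives in about 1 of 20. Values are normalised CPM, each with the nearest library of its group.

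Apc fl/fl 8 was the library apart in 21 of them. Its summed levels were high for polyamine (1430, nearest 1100), glycolysis (7520, nearest 5440), respiratory chain and TCA cycle (30600, nearest 16800), T cell (275, nearest 190), pancreatic (131, nearest 82.8) and erythroid genes (221, nearest 60.4). They were low for destruction complex and Wnt receptor (1710, nearest 2680), endothelial (117, nearest 204) and circadian clock genes (253, nearest 353). Single genes were high for Ldha (2030, nearest 1230), Fth1 (5820, nearest 3450), Tff3 (1900, nearest 428), Gzma (96.0, nearest 59.7) and Cd79a (39.7, nearest 6.12). They were low for Apc (43.1, nearest 112), Fzd5 (27.1, nearest 43.4), Efnb1 (31.6, nearest 53.9), Hnf4a (495, nearest 672), Itgae (4.53, nearest 10.9), Kdr (13.7, nearest 24.9) and Tgfbr2 (103, nearest 223). This library also held the excess of short transcripts and of reads on Lars2, CT010467.1 and Gm26917, whose part in these values was not tested.

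The shallow library Apc fl/fl 1 was apart in 11. Its summed nutrient transporter (6970, nearest 4340) and xenobiotic enzyme levels (5850, nearest 4130) were nearest to WT. So were Sis (1690, nearest 1050), Alpi (1750, nearest 1000), Slc5a1 (2130, nearest 1140), Cs (1090, nearest 854), Sc5d (128, nearest 108) and Gcg (19.9, nearest 12.2). Pdx1 was high (18.1, nearest 6.12), and Csnk1e (28.9, nearest 46.4) and E2f2 (18.1, nearest 27.7) were low.

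Apc fl/fl 5 was apart in 9, always as the highest. These were the summed foetal and revival (3480, nearest 1150), fibroblast and matrix (4630, nearest 2220), stomach and Brunner gland (198, nearest 20.3), neutrophil (95.7, nearest 52.1) and tuft cell levels (121, nearest 89.1), and Clu (1540, nearest 97.4), Anxa1 (172, nearest 59.4), Ccn2 (118, nearest 23.5) and Hk2 (288, nearest 158). Single values stood apart for Cyp3a11 in Apc fl/fl 2 (169, nearest 77.7), Slc23a1 in Apc fl/fl 3 (13.4, nearest 5.42), Pgc in Apc fl/fl 4 (20.2, nearest 12.0) and Gulo in Apc fl/fl 10 (54.6, nearest 15.5).

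Among WT libraries, WT 4 was apart in 5, with Cd79a (52.1, nearest 17.3), Clu (132, nearest 25.4), Lats2 (23.3, nearest 18.7) and Slc3a2 (518, nearest 415) high and summed interferon-stimulated genes low (1490, nearest 2130). WT 5 was low for Clca1 (578, nearest 863) and Zfp36 (160, nearest 210) and high for Sox10 (3.48, nearest 1.84). WT 2 was high for Trpm5 (39.3, nearest 23.5) and summed erythroid genes (48.9, nearest 16.2). WT 1 was high for stomach markers (9.24, nearest 4.25) and WT 6 for enteroendocrine genes (859, nearest 681).

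The effect of Apc loss differed by Gm13394 reads, in the interaction test of edgeR, for 51 genes. They included Pdx1 (log2 difference 4.37, adjusted p = 0.0273), Slc23a1 (-4.17, adjusted p = 0.0366) and Tnfrsf19 (-1.79, adjusted p = 0.0283). The count fell to 0 without WT 1 or without WT 2 and rose to 1340 without Apc fl/fl 8, and 2625 genes had an unadjusted p under 0.05 with all libraries.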

How the results depend on the processing

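Across 26 alternatives, 3760 of 3926 values of named genes kept their direction and their side of the threshold, 115 no longer passed, 42 newly passed and 9 changed sign. The sign changed for Ctnnb1 (-0.03), Lyz1 (0.59), Defa24 (0.32), Isg15 (-0.84), Anxa1 (-0.07) and Ly6a (-0.49) with the libraries at or under 10 CPM of Gm13394 alone, for Epcam (0.04) and Pdx1 (1.99) with those over it, and for Hnf4a (0.01) without Apc fl/fl 1 and 8. Of counts of list members 1259 of 1352 stayed within 1.5 times, and the cause of the following changes was not tested. With the libraries over 10 CPM of Gm13394 alone, 5490 genes were called, 2450 higher and 3040 lower, and the counts were 1 lower for glycolysis, 2 lower for the respiratory chain and TCA cycle, 5 higher for cholesterol synthesis, 3 lower for goblet cells, 8 lower for macrophages and 1 lower for neutrophils. With those at or under 10 CPM, 32 respiratory chain and TCA genes fell, 9 Paneth cell genes rose, 21 macrophage and 4 neutrophil genes fell and 0 interferon-stimulated genes rose. Without Apc fl/fl 1 and 8 together, 30 respiratory chain and TCA genes, 13 B cell genes and 8 MHC class II genes fell, and the interaction with Gm13394 passed for 1826 genes. DESeq2 called 18 respiratory chain and TCA genes lower. With voom 8 MHC class II genes fell and 1 interferon-stimulated gene rose, and with a Gm13394 term 1 interferon-stimulated gene rose. Leaving out 1 library gave 8677 to 10964 calls (4311 to 5309 higher, 4281 to 5655 lower, the most without Apc fl/fl 8), 0 to 1340 genes in the interaction (0 without WT 1 or WT 2), 5 to 32 lower respiratory chain and TCA genes, 6 to 13 lower B cell genes and 4 to 9 lower MHC class II genes. Of genes said to have risen or fallen, the call held in 6 of 16 such fits for Ubtf and Anxa1, 7 for Ly6a, 9 for Slc16a1 and Defa30, 10 for Clu, 13 for Sqle and 14 for Spdef. Equal replicate numbers did not pair the mice, since their deviations correlated at 0.133, -0.208, 0.0962, -0.0162, 0.185 and -0.0247, and the labels name no pairing. With a replicate block 4391 genes rose and 4628 fell, 26 respiratory chain and TCA genes and 8 MHC class II genes fell and 1 interferon-stimulated gene rose. The 516985 reads of Apc fl/fl 1 limit it to genes above a few CPM.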

Other observations

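Some libraries held genes of other organs or states. Apc fl/fl 5 had 18 genes more than 8-fold above every other library, and Apc fl/fl 8 also 18, Apc fl/fl 7 had 6, and the remaining libraries 0 to 2 each. In Apc fl/fl 5 these included the stomach genes Gkn1 (41.3 normalised CPM, next library 1.09), Muc6 (35.7, next 1.47) and Tff1 (57.9, next 0.253), the stress and matrix genes Clu (1540, next 132) and Spp1 (217, next 22.2), and the cell cycle inhibitor Cdkn2a (28.6, next 0.822). Cdkn2a did not pass the filter on low counts in the comparison of the groups. In Apc fl/fl 7 they were the liver genes Alb (77.5, next 4.4), Hpx (32.9, next 1.59), Ahsg and 3 fibrinogen chains.

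Tumours of the same study hold some of these genes. In CPM scaled by the library total, Gkn1 was 45.9 in Apc fl/fl 5, with a median of 63.4 in 5 Apc fl/+ tumours of the small intestine and 0.611 in 4 tumours of Braf V600E/+ Alk5 fl/fl mice. Muc6 was 39.7, against medians of 357 and 2.15. Cdkn2a was 31.8, against 0.985 and 6.71. Clu was 1720, against 2070 and 346. Ankrd1 was 9.9, against 0.645 and 6.61. Fn1 was 963, against 243 and 1290. Apc fl/fl 5 therefore stood within the range of the Apc fl/+ tumours for Gkn1, Muc6, Clu and Fn1, within that of the Braf V600E/+ Alk5 fl/fl tumours and above the Apc fl/+ tumours for Ankrd1, and above both tumour groups for Cdkn2a, and no comparison was tested.

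Apc fl/fl 5 also had reads of Xist (575 CPM) together with 7.53 CPM of Ddx3y, whereas the other 15 libraries had one of the pair at or under 3.87 CPM.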
